A study of Astyanax mexicanus with 12 samples.

Results

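Genes of the lipid droplet and of lipolysis were followed across 12 liver libraries of Astyanax mexicanus, the Mexican tetra, which lives as an eyeless form in caves and as an eyed form in surface rivers. The members were chosen by name: 10 gene symbols were looked up in the deposited table of 27420 genes, and 7 of them named a row, plin2, cideb, plin6, pnpla2, lipea, lipeb and mgll. Earlier results of these data were known when the symbols were chosen. The symbols plin3, abhd5a and g0s2 matched no row name and were not analysed here. The livers came in 4 groups with 3 libraries each. Wild-caught cave fish (here cave wild) and laboratory cave fish (cave lab) were both titled Pachón. The other groups were wild-caught surface fish (surface wild) and laboratory surface fish (surface lab). All fish were adults fasted for 12 hours before dissection. For sex, age, time of day and the number of fish behind each library, the labels give nothing. The labels number the libraries without naming separate animals, so p-values measure only the spread between these libraries. Environment means wild-caught against laboratory fish, and surroundings cannot be told apart from stock or place of capture.

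Liver cells store fatty acids as triglyceride inside lipid droplets, which carry a coat of perilipins and other proteins. Lipolysis takes the triglyceride apart in steps. The lipase encoded by pnpla2 (ATGL in mammals) removes the first fatty acid, hormone-sensitive lipase removes the second, and monoglyceride lipase releases glycerol. Perilipins limit the access of lipases to the droplet, and in mammals ABHD5 activates the pnpla2 product while G0S2 inhibits it. In the mammalian liver the pnpla2 product acts on droplets during fasting, and CIDEB helps to load lipid onto secreted lipoprotein particles.

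Values are TPM, transcript abundance scaled by transcript length and to the same total in each library, so levels of different genes can be compared, but the number of reads behind a value cannot be told. Differences are log2 differences on the log2(TPM + 1) scale, which understates changes of low genes, with a standard error from limma. A gene was called when its p, adjusted by Benjamini-Hochberg over all 12895 tested genes of the comparison, was under 0.05. Of the 7 members found, 6 passed the filter of 1 TPM or more in at least 3 libraries.

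Several features of the libraries bear on these genes. Factors that centre each library on its genes (median-of-ratios scaling) ran from 0.58 to 0.705 for cave wild and 1.25 to 1.39 for cave lab, and from 0.965 to 1.11 for surface wild and 0.991 to 1.42 for surface lab libraries. On the TPM scale the median gene therefore shifted by -0.46 in cave wild minus surface wild, 0.10 in cave lab minus surface lab, -0.69 in cave wild minus cave lab and -0.11 in surface wild minus surface lab. Surface wild 1 and 2 lay apart on the first principal component, at -113 and -101.1, where the other 10 libraries lay between -37.3 and 61.5. The hepatocyte markers found (22 of 29) summed to between 110106 and 172636 TPM in every library, lowest in surface wild. The adipocyte markers found (13 of 18) summed to 284 to 393 TPM for cave wild and 364 to 419 for cave lab, and to 401 to 715 for surface wild and 807 to 10478 for surface lab livers. Most of the surface lab sum was fabp11a, and without it the surface lab sums were 258 to 446 TPM, against 144 to 376 elsewhere. Of the single markers, lepb was listed at 0 throughout, cd36, cidea, adipoqb and SLC2A4 stayed at or under 0.23 TPM and cfd, adipor1a and acacb reached 5.86 to 10.2 TPM. The other leptin copy, lepa, ran from 0.36 to 251 TPM, cidec from 0.54 to 99.8, PPARG from 7.62 to 35.1 and lpl from 91.2 to 379. Macrophage markers (21 of 28 found) summed to 41.9 to 71.6 TPM in cave wild livers and 136 to 268 in the other groups. Erythrocyte markers (11 of 22) summed to 37.8 to 79.0 TPM in surface wild livers and 116 to 398 elsewhere. Exocrine pancreas markers (8 of 32) summed to 281 to 12336 TPM and muscle markers (18 of 22) to 0.09 to 24.8. The part of these other cells in the results was not tested. In tissue RNA, fewer cells of a type and less RNA per cell cannot be told apart.

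Of the members, cideb and plin2 were the most abundant. Over the 12 libraries cideb averaged 168 TPM, plin2 55.4, pnpla2 8.475, lipea 4.08, mgll 2.57 and lipeb 1.04. The order of the leading pair held within each group by mean, and their libraries overlapped in surface wild alone, where cideb averaged 109.3 and plin2 109.1 TPM. Between pnpla2, lipea and mgll the order changed from group to group. In cave wild livers lipea stood above pnpla2 by mean with overlapping libraries, and in surface wild livers pnpla2 stood above lipea without overlap. The gene plin6 (ENSAMXG00000041336), a perilipin known from pigment cells of zebrafish, was listed at 0 in all 12 libraries.

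**Figure D1:**
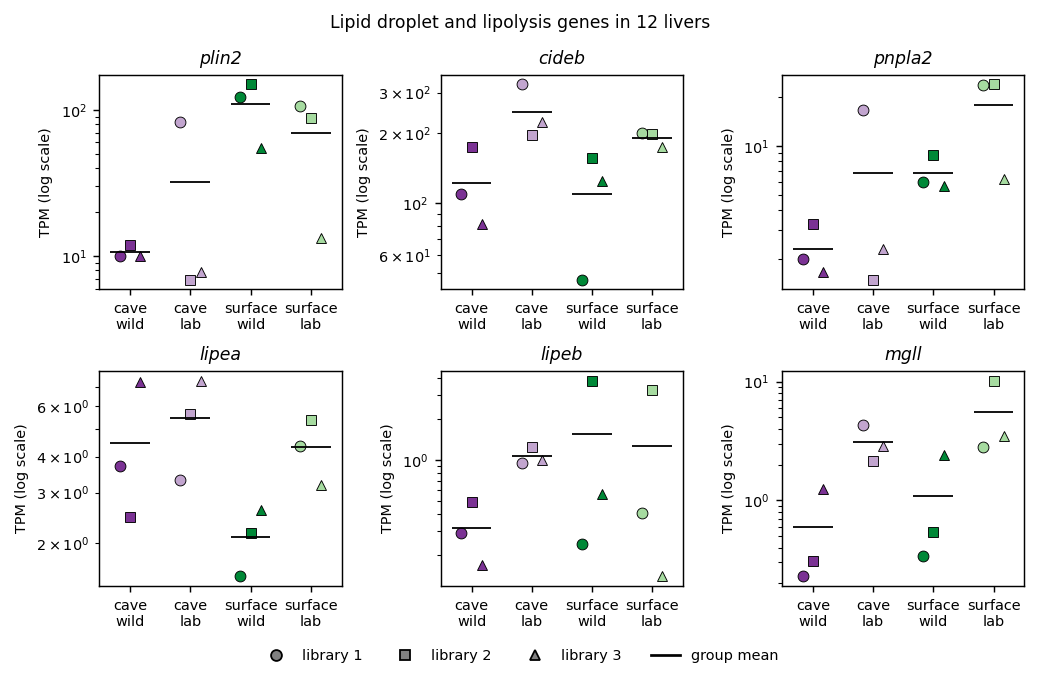
TPM on log axes of the 6 detected members in each of the 12 libraries, by group, with the library number as marker shape and the group mean as a bar. In the plin2 panel, cave lab 1 (82.6 TPM) stands with the surface libraries, and surface lab 3 (13.4 TPM) stands with the cave libraries.

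Perilipin 2, plin2 (ENSAMXG00000002544), the droplet coat protein of most mammalian cells including hepatocytes, split the 12 libraries into a high and a low set. Cave wild 1, 2 and 3 had 10.01, 12.0 and 10.1 TPM. Cave lab 1, 2 and 3 had 82.6, 6.91 and 7.75 TPM. Surface wild 1, 2 and 3 had 122, 149.9 and 55.1 TPM, and surface lab 1, 2 and 3 had 107, 87.5 and 13.4 TPM. All cave wild livers were low and all surface wild livers were high. Each laboratory group held libraries of both kinds, and its highest and lowest values differed 11.95-fold among cave lab and 7.97-fold among surface lab livers.

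In wild-caught fish, plin2 averaged 10.7 ± 1.12 TPM in cave and 109 ± 48.8 TPM in surface livers (SD, n = 3 each), a log2 difference of -3.12 ± 0.90 (SE, adjusted p = 0.0242). The libraries of the groups did not overlap, here and under median-of-ratios scaling. The adjusted p was 0.0669 (difference -2.48) under median-of-ratios scaling and 0.0654 (-2.54) under quantile scaling. It was 0.0549 when low genes were kept in the test. Leaving out cave wild 1, 2 or 3 gave 0.0619, 0.0628 or 0.0608, and 0.0725 or 0.0807 came without surface wild 1 or 2. Across 21 alternatives the difference lay between -3.55 and -2.26 and 12 kept the call, with adjusted p between 0.0131 and 0.408. The lower end of that size, -2.26, came without surface wild 1 and 2. In laboratory fish plin2 averaged 32.4 ± 43.5 TPM in cave and 69.3 ± 49.4 in surface livers (-1.53 ± 0.90, adjusted p = 0.383). The 95% confidence interval of that difference ran from -3.49 to 0.44. Without cave lab 1 it was -2.64 ± 0.75 (adjusted p = 0.0724). Leaving out single libraries gave -2.64 to -0.93, with adjusted p from 0.0724 to 0.743.

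Between environments plin2 did not pass in either form. The difference of wild-caught minus laboratory fish was -0.62 ± 0.90 in cave livers (adjusted p = 0.609) and 0.97 ± 0.90 in surface livers (adjusted p = 0.463). The cave value took the opposite sign, 0.29, under median-of-ratios scaling and 0.49 without cave lab 1.

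The other droplet protein, cideb (ENSAMXG00000003822), varied less across the libraries, and none of its differences passed. Cave wild 1, 2 and 3 had 109, 175 and 81.4 TPM and cave lab 1, 2 and 3 had 325, 196 and 223 TPM, without overlap. Surface wild 1, 2 and 3 had 46.8, 156 and 125 TPM and surface lab 1, 2 and 3 had 200.1, 199 and 175 TPM, again without overlap. Wild-caught livers were thus lower in both forms, by -1.06 ± 0.45 in cave (adjusted p = 0.0834) and -0.97 ± 0.45 in surface livers (adjusted p = 0.146), and neither passed. Under median-of-ratios scaling the groups overlapped in both forms, and cave wild minus cave lab was -0.067 where cave wild minus surface wild was 0.93 (adjusted p = 0.179). The cave environment difference passed in 3 of 21 alternatives. These were the fit of those groups alone (adjusted p = 0.0414), 1 run with a single library left out (0.0345) and the run without surface wild 1 and 2. On the TPM scale cave and surface livers did not differ beyond their spread, at 0.25 ± 0.45 in wild-caught (adjusted p = 0.691) and 0.34 ± 0.45 in laboratory fish (adjusted p = 0.746).

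The first lipase, pnpla2 (ENSAMXG00000037594), was low in most cave livers. Cave wild 1, 2 and 3 had 2.01, 3.27 and 1.67 TPM, and cave lab 1, 2 and 3 had 16.6, 1.49 and 2.32 TPM. Surface wild 1, 2 and 3 had 5.97, 8.82 and 5.63 TPM, and surface lab 1, 2 and 3 had 23.7, 23.9 and 6.25 TPM. Cave wild and surface wild livers did not overlap, and cave lab 1 was the only cave library above 3.27 TPM. The cave minus surface difference was -1.24 ± 0.66 in wild-caught (adjusted p = 0.165) and -1.65 ± 0.66 in laboratory fish (adjusted p = 0.174, unadjusted p = 0.0283). Neither passed, with 95% confidence intervals from -2.68 to 0.20 and from -3.09 to -0.21. Without cave lab 1 the laboratory difference was -2.52 ± 0.50 and passed (adjusted p = 0.0143), the only 1 of 21 alternatives to do so. Leaving out single libraries gave -2.52 to -1.11, with adjusted p up to 0.5. Wild-caught minus laboratory differences were -0.69 ± 0.66 in cave (adjusted p = 0.421) and -1.10 ± 0.66 in surface livers (adjusted p = 0.252). The cave value was 0.02 under median-of-ratios scaling.

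A row named ABHD5 (ENSAMXG00000000162), the mammalian symbol of the activator of this lipase, is not a member by the name rule and was looked at after its values were seen. It stood at 3.29, 4.29 and 4.86 TPM in cave wild 1, 2 and 3, and at 23.7, 7.26 and 8.34 TPM in cave lab 1, 2 and 3. In surface wild 1, 2 and 3 it stood at 6.97, 16.8 and 11.4 TPM, and in surface lab 1, 2 and 3 at 19.4, 19.0 and 9.44 TPM. As with plin2 and pnpla2, cave lab 1 stood above the other cave lab libraries and surface lab 3 below the other surface lab libraries. ABHD5 was lower in cave wild than in cave lab livers (-1.28 ± 0.46, adjusted p = 0.0452). That call held in 10 of 21 alternatives, which gave -1.57 to -0.43, the smallest under median-of-ratios scaling. It ended under median-of-ratios scaling (adjusted p = 0.574) and quantile scaling (0.506). The call also ended with the 50 most abundant genes removed (0.0676) and with low genes kept in the test (0.0736). Single libraries ended it as well: cave wild 1 (0.135), 2 (0.0825) or 3 (0.0764), cave lab 1 (0.175) or 3 (0.0566), or surface lab 1 (0.0515) left out. So did the replicate number as a block (0.0596). Cave wild minus surface wild was -1.24 ± 0.46 (adjusted p = 0.0551).

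**Figure D2:**
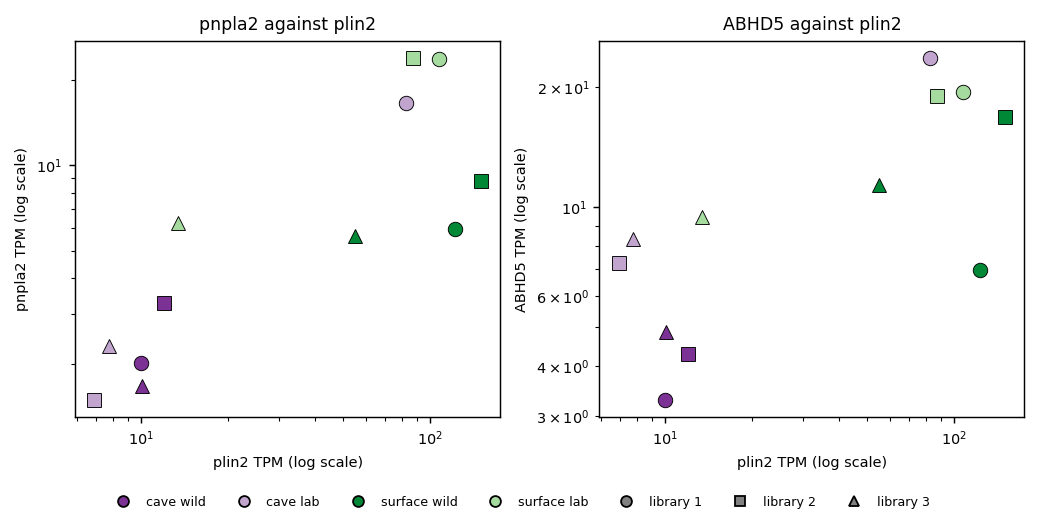
TPM of pnpla2 (left) and ABHD5 (right) against plin2 in the 12 libraries, all axes logarithmic, with group as colour and library number as shape. Cave lab 1 lies near surface lab 1 and 2 in both panels, and the 3 surface wild libraries have high plin2 beside 5.63 to 8.82 TPM of pnpla2.

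The ratio of plin2 TPM to pnpla2 TPM within a library does not depend on the scaling of that library. It was 4.98, 3.67 and 6.05 in cave wild 1, 2 and 3, and 4.97, 4.64 and 3.34 in cave lab 1, 2 and 3. It was 20.5, 16.99 and 9.78 in surface wild 1, 2 and 3, and 4.52, 3.65 and 2.15 in surface lab 1, 2 and 3. The surface wild libraries lay above the other 9, and cave lab 1 did not stand apart. On the log2 scale with 1 TPM added to each gene, where scaling does enter because pnpla2 was low in most cave livers, the ratio averaged 1.84 ± 0.227 for cave wild and 1.77 ± 0.434 for cave lab, against 3.72 ± 0.565 for surface wild and 1.65 ± 0.588 for surface lab livers (SD, n = 3 each).

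Cave livers averaged 1.81 and surface livers 2.69 on that scale, a difference of -0.88 (exact permutation of form within environment, two-sided p = 0.075 over 400 orders). Wild-caught livers averaged 2.78 and laboratory livers 1.71, a difference of 1.07 (exact permutation of environment within form, two-sided p = 0.04). Adjusted over these 2 tests both were 0.075, and the smallest p the design allows is 0.005. The surface wild libraries, with a mean of 3.72 where the other group means were 1.65 to 1.84, enter both differences. Whether the environment difference of the ratio differed between forms was not tested. With nothing added, the form and environment differences were -0.637 (adjusted exact permutation p = 0.17) and 1.18 (0.05). By library number, surface wild minus surface lab was 2.02, 2.12 and 2.09, all of the same sign. With these libraries paired, the environment test gave an exact two-sided permutation p of 0.1 over 160 orders, of which the smallest possible is 0.0125. Without cave lab 1 the differences were -0.997 and 1.19, with adjusted exact permutation p of 0.04 and 0.03. These were the lowest p with a single library left out. Such runs reached adjusted exact permutation p of 0.14 for form and 0.115 for environment.

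Of the second step, hormone-sensitive lipase, 2 copies were found. The copy lipea (ENSAMXG00000009583) had 3.70, 2.46 and 7.26 TPM in cave wild 1, 2 and 3, and 3.31, 5.64 and 7.34 TPM in cave lab 1, 2 and 3. It had 1.54, 2.18 and 2.62 TPM in surface wild 1, 2 and 3, and 4.36, 5.36 and 3.20 TPM in surface lab 1, 2 and 3. Surface wild livers lay below surface lab livers without overlap (-0.76 ± 0.35, adjusted p = 0.142) and overlapped with cave wild livers. It was the member with the most positive cave difference in wild-caught fish, 0.73 ± 0.35 (adjusted p = 0.126). That difference passed under median-of-ratios scaling (1.28 ± 0.35, adjusted p = 0.028) and quantile scaling (1.23 ± 0.35, adjusted p = 0.0354), and its libraries did not overlap under the first of these. In laboratory fish it was 0.25 ± 0.35 (adjusted p = 0.766).

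The copy lipeb (ENSAMXG00000015332) was near the lower end of what was tested, at 1 TPM or more in 4 libraries. It stood at 0.17 to 0.49 TPM in cave wild and 0.95 to 1.25 in cave lab livers, which did not overlap. In surface wild 1, 2 and 3 it stood at 0.24, 3.80 and 0.56 TPM, and in surface lab 1, 2 and 3 at 0.41, 3.23 and 0.14 TPM. Library 2 was the highest in both surface groups. No difference of lipeb passed, and cave wild minus cave lab was -0.65 ± 0.51 (adjusted p = 0.328). Fitting those 2 groups alone gave the same difference with an adjusted p of 0.012.

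Monoglyceride lipase, mgll (ENSAMXG00000039283), which completes the release of fatty acids, was lower in wild-caught than in laboratory livers of both forms. Cave wild 1, 2 and 3 had 0.23, 0.31 and 1.24 TPM and cave lab 1, 2 and 3 had 4.30, 2.14 and 2.87 TPM. Surface wild 1, 2 and 3 had 0.34, 0.54 and 2.39 TPM and surface lab 1, 2 and 3 had 2.82, 10.2 and 3.49 TPM. In neither form did the groups overlap. The differences were -1.39 ± 0.45 in cave (adjusted p = 0.0329) and -1.59 ± 0.45 in surface livers (adjusted p = 0.033).

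Both mgll calls depended on settings. The surface call held under median-of-ratios scaling (-1.42, adjusted p = 0.0421). The cave call did not (-0.90, adjusted p = 0.215), where the libraries also overlapped. The cave call ended without cave wild 1 (0.114) or 2 (0.0847), and without cave lab 1 (0.106), 2 (0.0501) or 3 (0.0686). The surface call ended without surface wild 1 (0.119) or 2 (0.101), and without surface lab 2 (0.0968) or 3 (0.0562). Both ended with low genes kept in the test (0.0668 and 0.0734), and the surface call when those groups were fitted alone (0.127). Without surface wild 1 and 2 the surface difference of mgll was -0.77. Between forms mgll differed by -0.32 ± 0.45 in wild-caught (adjusted p = 0.611) and -0.52 ± 0.45 in laboratory fish (adjusted p = 0.584).

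**Figure D3:**
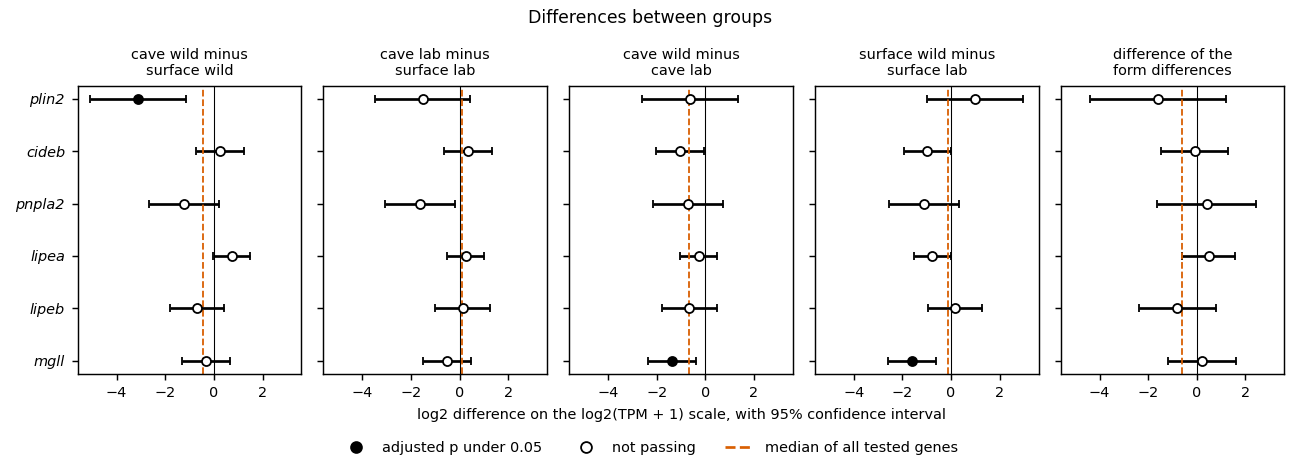
Log2 differences of the 6 members on the log2(TPM + 1) scale with 95% confidence intervals, in the 4 comparisons of 2 groups and in the difference between the form differences. Filled points passed, plin2 in wild-caught cave minus surface livers and mgll in both comparisons of wild-caught minus laboratory fish, and the dashed line is the median of all tested genes.

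Counted over the 6 tested members, calls were few in each comparison. In cave wild against surface wild, 1 was called lower, against 26.5% of all tested genes. The libraries of 2 members did not overlap, both lower in cave, against 37.2% of all genes. In cave lab against surface lab, limma called 0 of 6 (1 had an unadjusted p under 0.05), against 7.55% of all genes called. No member separated those groups, which 27.4% of all genes did. In cave wild against cave lab, 1 was called lower against 34.3% of all genes, and 3 lay lower without overlap against 56.6%. In surface wild against surface lab, 1 was called lower against 11.2%, and 3 lay lower without overlap against 20.7%.

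The median difference of the 6 members was -0.50 in cave wild minus surface wild and -0.67 in cave wild minus cave lab, close to the medians of all genes given above. It was -0.20 in cave lab minus surface lab and -0.87 in surface wild minus surface lab, where all genes had 0.10 and -0.11. The comparisons share groups, so their counts are not independent of each other. The difference between the form differences (wild-caught minus laboratory) was called for 0 of 6 members in limma (0 had an unadjusted p under 0.05), against 5.08% of all genes. It was largest for plin2, -1.59 ± 1.28 (adjusted p = 0.395), with a 95% confidence interval from -4.38 to 1.19.

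Likeness of pattern was measured for the 2 most abundant members as Pearson's r of log2(TPM + 1) over the 12 libraries, among named genes that averaged 10 TPM or more. The libraries of a group share their condition, and all genes of a library share its scaling. Most like plin2 were agpat9l, named for an acyltransferase of glycerolipid synthesis (r = 0.93), keap1b, a sensor of oxidative stress (0.928), and sat1a.2, of polyamine breakdown (0.917). Next came prkaa1, a catalytic subunit of AMP-activated kinase (0.916), and c7b, of the complement attack complex (0.906). For instance, agpat9l stood at 45.7, 4.89 and 7.45 TPM in cave lab 1, 2 and 3 and at 39.1, 61.1 and 10.1 TPM in surface lab 1, 2 and 3. Cave lab 1 and surface lab 3 departed from their groups for agpat9l in the direction that they did for plin2. The genes were chosen by r over these same libraries, so shared departures are built into the choice. After each group's mean was taken off, r over these 5 genes was 0.838 to 0.97.

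Most like cideb were atg4b, a protease of autophagy (r = 0.957), dexi (0.956), si:ch73-190f16.2 (0.944), wdr45, of autophagosome formation (0.944), and isca2, of mitochondrial iron-sulphur assembly (0.942). For cideb and these 5 genes, which were chosen in the same way, surface wild 1 was the lowest library of its group. Under median-of-ratios scaling r was 0.815 to 0.919 for plin2 and 0.894 to 0.954 for cideb.

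**Figure D4:**
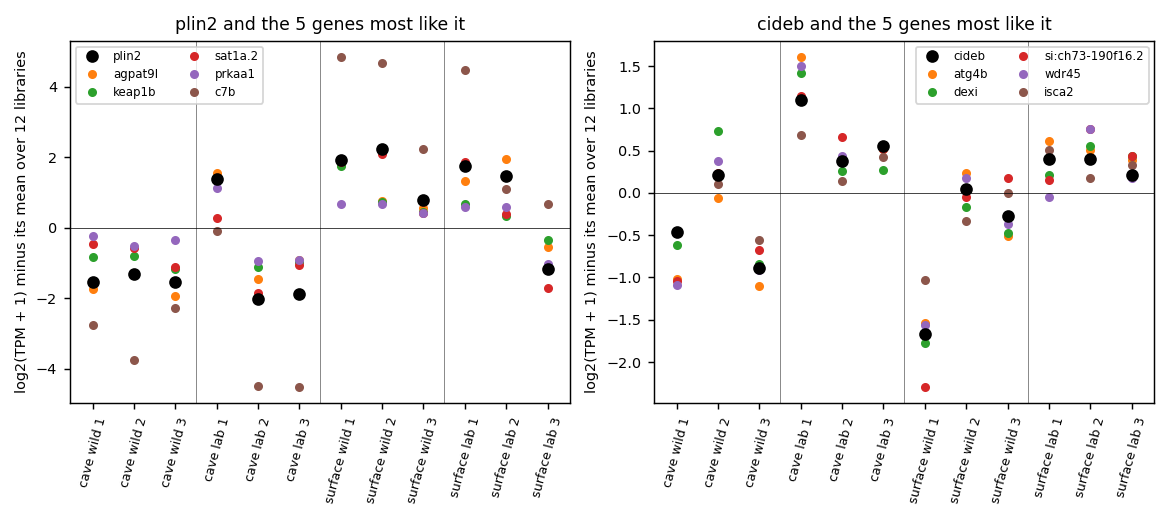
Log2(TPM + 1) of plin2 (left) and cideb (right), in black, and of the 5 genes most like each, in colour, as deviations from their mean over the 12 libraries. Cave lab 1 lies above cave lab 2 and 3 for plin2 and its 5 genes, and surface wild 1 lies lowest of its group for cideb and its 5 genes. The genes were chosen by r over these same libraries.

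Other proteins of the droplet and its surroundings were read from a list of 44 symbols, of which 28 rows were found and 21 tested. In cave wild against surface wild 11 were lower (26.5% of all tested genes were), 0 higher and 10 did not pass, and the list median was -1.20 beside -0.46 for all genes. Among the lower genes were rab8a, a vesicle transport GTPase (-2.59 ± 0.48, adjusted p = 0.00593), and arf1, which recruits coat proteins to droplets and Golgi (-2.85 ± 0.55, adjusted p = 0.00646). Also lower was nsdhl (-4.01 ± 0.82, adjusted p = 0.00805), a sterol synthesis enzyme that can sit on droplets. It stood at 0.24, 5.65 and 0.28 TPM in cave wild 1, 2 and 3, against 114, 40.1 and 8.37 TPM in surface wild 1, 2 and 3. With median-of-ratios factors 6 were lower and 0 higher, beside 1012 lower and 1299 higher of all 12895 tested genes. The count was 6 when cave wild 2, surface wild 1 or surface wild 2 was left out, and 1 without surface wild 1 and 2, when rab8a (-1.40, adjusted p = 0.218), arf1 (-1.49, 0.236) and nsdhl (-2.10, 0.258) did not pass.

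In cave lab against surface lab limma called 0 of the 21, beside 7.55% of all genes, and 2 had an unadjusted p under 0.05. The most abundant, rab18b, a droplet GTPase, had 45.8, 32.1 and 25.6 TPM in cave lab 1, 2 and 3, against 78.2, 70.0 and 32.97 TPM in surface lab 1, 2 and 3 (-0.74 ± 0.51, adjusted p = 0.468). Between cave wild and cave lab 7 of 21 were lower, a share near the 34.3% of all tested genes, and 0 higher, with spartb, which is linked to droplet turnover in mammals, at -1.83 ± 0.33 (adjusted p = 0.00313). Leaving out single libraries gave 3 to 11 calls, with 4 without cave wild 1 or 3, 3 without cave lab 1 or 2 and 11 without surface wild 3. Under median-of-ratios scaling limma called 0 there, with 3 at an unadjusted p under 0.05, and spartb had an adjusted p of 0.0842. Of all 12895 tested genes, 455 were lower and 484 higher under that scaling. In surface wild against surface lab 2 were higher and 1 lower, beside 6.77% and 11.2% of all genes. Higher were nsdhl (4.03 ± 0.82, adjusted p = 0.00995) and fitm2, which promotes droplet formation (1.80 ± 0.38, adjusted p = 0.012). The count was 8 without surface wild 3. Fitted on these groups alone limma called 0 of 21 (6 had an unadjusted p under 0.05), with nsdhl at 0.0682, fitm2 at 0.0838 and spartb at 0.0882. Without surface wild 1 and 2 the differences were 2.12 for nsdhl and 0.93 for fitm2, and neither passed. The lower gene was spartb (-1.29 ± 0.33, adjusted p = 0.0232), which did not pass without surface wild 1 (0.0717), surface lab 2 (0.0587) or surface lab 3 (0.0526).

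Other lipases and related enzymes came from a list of 48 symbols, with 35 rows found and 28 tested. Cave wild against surface wild gave 2 higher and 3 lower, beside 5.13% and 26.5% of all genes, and 23 did not pass. The fatty acid amide hydrolase faah2b was higher (2.183 ± 0.45, adjusted p = 0.00821), at 31.8, 28.4 and 44.5 TPM in cave wild 1, 2 and 3 against 6.32, 3.70 and 12.6 TPM in surface wild 1, 2 and 3. Its difference without surface wild 1 and 2 was 1.38 (adjusted p = 0.253). Lower were lypla2, an acyl-protein and lysophospholipid thioesterase (-1.49 ± 0.37, adjusted p = 0.0151), and hacd1 (-1.36 ± 0.34, adjusted p = 0.0151). The gene hacd1 belongs to fatty acid elongation and is no lipase. Neither passed without cave wild 2 or surface wild 1 or 2, at adjusted p of 0.0525 to 0.0609. Under median-of-ratios scaling 2 of the list were higher and 1 lower, beside 1299 and 1012 of all tested genes. There lypla2 was at -0.90 (adjusted p = 0.0684). Under quantile scaling 2 were higher and 0 lower, with lypla2 at -0.76 (adjusted p = 0.0878) and hacd1 at -1.09 (adjusted p = 0.0566). Leaving out single libraries gave 3 calls without cave wild 1, 2 without cave wild 2, 1 without surface wild 1 or 2 and 8 without surface wild 3.

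In cave lab against surface lab 1 was higher and 1 lower of the 28, beside 5.26% and 2.3% of all genes. The higher one was pnpla6, a phospholipase of the pnpla2 family, at 22.3, 14.3 and 9.27 TPM in cave lab 1, 2 and 3 against 4.71, 5.5 and 2.90 TPM in surface lab 1, 2 and 3 (1.55 ± 0.35, adjusted p = 0.0167). The pnpla6 call ended without cave lab 1 (0.0652), cave lab 2 (0.0521) or surface lab 3 (0.0588), and with those groups fitted alone (0.0529). The lower one was PNLIPRP2 (-4.60 ± 0.86, adjusted p = 0.00594), which is also on the exocrine pancreas list. Between cave wild and cave lab 11 of 28 were lower, beside 34.3% of all genes, and 1 higher. The lower genes included pnpla6 (-2.41 ± 0.35, adjusted p = 0.0016) and abhd12, a lysophospholipid and monoglyceride hydrolase (-1.25 ± 0.25, adjusted p = 0.00443). With median-of-ratios factors 2 were lower and 1 higher, beside 455 and 484 of all 12895 tested genes. The gene pnpla6 passed in each of 21 alternatives. Leaving out cave wild 1, cave wild 3 or cave lab 1 gave 6 calls. In surface wild against surface lab 6 of 28 were lower, beside 11.2% of all genes, and 1 higher, with faah2b (-3.01 ± 0.45, adjusted p = 0.00294) and pnpla7b (-1.63 ± 0.39, adjusted p = 0.0178) lower and lypla1 higher (1.85 ± 0.45, adjusted p = 0.0192). The call of pnpla7b ended without surface wild 1 or surface lab 2, and that of lypla1 without surface wild 1, surface wild 2 or surface lab 3, at adjusted p of 0.0529 to 0.0682. Leaving out surface wild 1, surface wild 2 or surface lab 2 gave 2 calls and surface lab 3 gave 3. Without surface wild 1 and 2 limma called 0 of 28 (6 had an unadjusted p under 0.05), and faah2b was at -2.20 (adjusted p = 0.0977). These groups fitted alone also gave 0 (10 unadjusted), with faah2b at 0.0561, pnpla7b at 0.0948 and lypla1 at 0.0964.

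**Figure D5:**
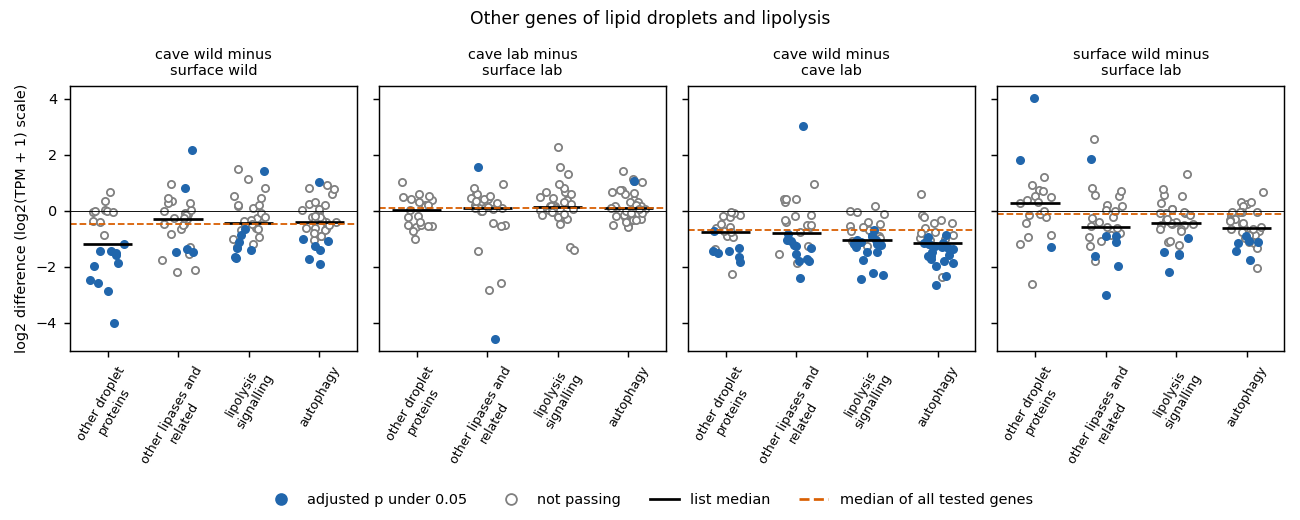
Log2 differences, on the log2(TPM + 1) scale, of each tested gene on 4 lists (other droplet proteins, other lipases and related enzymes, lipolysis signalling, autophagy) in the 4 comparisons of 2 groups. Filled points passed, bars are list medians and the dashed line is the median of all tested genes, with the list median of droplet proteins in cave wild minus surface wild at -1.20 beside -0.46 for all genes and that of autophagy genes in cave wild minus cave lab at -1.17 beside -0.69.

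Signals that control lipolysis, from glucagon and adrenergic receptors through protein kinase A to PPAR and FOXO factors, were read from a list of 57 symbols with 49 rows found and 32 tested. In cave wild against surface wild 1 was higher, 7 of 32 were lower beside 26.5% of all genes, and 24 did not pass. The regulatory subunits of protein kinase A prkar1aa (-1.33 ± 0.29, adjusted p = 0.00967) and prkar1ab (-1.68 ± 0.41, adjusted p = 0.014) were lower. So was pparab, a copy of the fatty acid receptor PPAR alpha (-1.67 ± 0.46, adjusted p = 0.0205). With median-of-ratios factors 3 rose and 1 fell, beside 1299 and 1012 of all 12895 tested genes. There prkar1ab (adjusted p = 0.0554) and pparab (0.119) did not pass. Under quantile scaling prkar1aa (0.109), prkar1ab (0.072) and pparab (0.161) did not pass. Leaving out cave wild 1, 2 or 3 or surface wild 1 or 2 gave 2 to 4 calls. The call of prkar1ab ended without surface wild 1 (0.0509), and so did that of pparab (0.0749), which also ended when cave wild 2 (0.0502) or 3 (0.0747) was dropped or these groups were fitted alone (0.0563). Without surface wild 1 and 2 limma called 0 of 32, with 5 at an unadjusted p under 0.05. In cave lab against surface lab limma called 0 of 32, beside 7.55% of all genes, and 6 had an unadjusted p under 0.05.

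Of the 32 signalling genes, 17 were lower and 0 higher in cave wild than in cave lab livers, beside 34.3% of all genes lower, at a list median of -1.04 beside -0.69 for all genes. They included pparda (-2.30 ± 0.42, adjusted p = 0.00332), CRTC2, a coactivator of the glucagon response in mammals (-1.24 ± 0.22, adjusted p = 0.00303), and prkar1ab (-2.21 ± 0.41, adjusted p = 0.00352). Under median-of-ratios scaling 2 were lower, beside 455 of all 12895 tested genes, and leaving out cave wild 1 or cave lab 2 gave 9 or 10. In surface wild against surface lab 5 of 32 were lower, beside 11.2% of all genes, and 0 higher. They included rxraa, a partner of PPAR receptors (-2.21 ± 0.39, adjusted p = 0.00576), and the glucagon receptor copy gcgra (-1.56 ± 0.34, adjusted p = 0.0123). The receptor gcgra stood at 4.24, 5.78 and 5.57 TPM in surface wild 1, 2 and 3 against 11.3, 22.8 and 19.7 TPM in surface lab 1, 2 and 3. Leaving out surface wild 1 or 2, cave wild 1 or 3, cave lab 3 or surface lab 2 gave 3 calls. Without surface wild 1 and 2 limma called 0 (5 unadjusted), with rxraa at -1.80 (adjusted p = 0.183) and gcgra at -1.47 (adjusted p = 0.2). Fitting these groups alone gave 0 as well (10 unadjusted), with rxraa at 0.0691 and gcgra at 0.0816.

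Autophagy genes, which can carry droplets to the lysosome, came from a list of 41 symbols with 36 rows found and 34 tested. In cave wild against surface wild 1 was higher and 6 of 34 were lower, beside 26.5% of all genes, among them lamp2 (-1.74 ± 0.43, adjusted p = 0.0144), a lysosomal membrane protein, and the cargo receptors optn (-1.92 ± 0.49, adjusted p = 0.0154) and sqstm1 (-1.41 ± 0.37, adjusted p = 0.0178). Under median-of-ratios scaling this turned to 5 higher and 0 lower, beside 1299 and 1012 of all 12895 tested genes. The lamp2 call ended without surface wild 2, the optn call without cave wild 2 or surface wild 1 or 2, and the sqstm1 call without cave wild 1 or surface wild 1, at adjusted p of 0.0531 to 0.0652. Leaving out cave wild 1 or 2 gave 3 calls, and surface wild 1 or 2 gave 1. Without both surface libraries limma called 0 of 34, with 2 at an unadjusted p under 0.05. In cave lab against surface lab nbr1b, a further cargo receptor, was the only call of 34, beside 7.55% of all genes (1.07 ± 0.24, adjusted p = 0.0174). It stood at 8.31, 6.27 and 5.43 TPM in cave lab 1, 2 and 3 against 2.23, 2.82 and 2.85 TPM in surface lab 1, 2 and 3. The nbr1b call ended without cave lab 1 or 2 or surface lab 1, and narrowly at a pseudocount of 0.1 (adjusted p = 0.051) or a filter at 5 TPM (0.0506).

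Of the 34 autophagy genes, 19 were lower and 0 higher in cave wild than in cave lab livers, beside 34.3% of all genes lower, and the list median was -1.17 beside -0.69 for all genes. The membrane marker map1lc3a stood at 9.62, 16.9 and 11.3 TPM in cave wild 1, 2 and 3 against 71.0, 64.7 and 62.8 TPM in cave lab 1, 2 and 3 (-2.34 ± 0.33, adjusted p = 0.00154). It and the initiating kinase ulk1b (-1.98 ± 0.35, adjusted p = 0.00287) passed in each of 21 alternatives. Median-of-ratios scaling gave 2 lower, beside 455 of all 12895 tested genes, and leaving out cave wild 1 or cave lab 1 gave 6. In surface wild against surface lab 6 of 34 were lower, beside 11.2% of all genes, and 0 higher, among them mcoln1b, a lysosomal calcium channel (-1.77 ± 0.32, adjusted p = 0.0065). Leaving out surface wild 1, surface wild 2 or surface lab 3 gave 1 call there, surface lab 2 gave 2, and cave wild 3, cave lab 2 or cave lab 3 gave 3. Without surface wild 1 and 2 limma called 0 (3 unadjusted), with mcoln1b at -1.28 (adjusted p = 0.169), and these groups fitted alone gave 0 (9 unadjusted), with mcoln1b at 0.0662.

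The difference between the form differences was called for 2 of the 115 tested genes on these lists, beside 5.08% of all genes. For pparab it was -3.23 ± 0.65 (adjusted p = 0.0223). That gene stood at 5.74, 4.63 and 1.99 TPM in cave wild and 22.6, 37.9 and 19.5 TPM in cave lab 1, 2 and 3, but at 21.7, 7.35 and 18.2 TPM in surface wild and 5.05, 10.6 and 9.35 TPM in surface lab 1, 2 and 3. For nsdhl it was -4.51 ± 1.15 (adjusted p = 0.0464, and 0.0527 with the replicate number as a block). Under median-of-ratios scaling the adjusted p was 0.0805 for pparab and 0.0994 for nsdhl. The pparab call ended without cave wild 3 (0.0597), cave lab 2 (0.052) or surface lab 1 (0.051). The nsdhl call ended without 10 of the 12 libraries, at adjusted p of 0.053 to 0.0982.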

How the data were processed

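The 12 liver libraries were sequenced as single reads after a stranded mRNA kit, per the labels' protocols. The deposited table holds TPM by the authors, made with RSEM per the table's title, and the submitters' processing notes also list bcl2fastq 2.18 and STAR 2.6.1c. Genome build and annotation: not given in the sources used here. Coordinates and sequences are therefore left out. Every column summed to 1000000 within rounding. TPM keeps no depth, so no counting interval was computed.

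Members are rows whose name equals a listed symbol, case ignored. Group means were fitted to log2(TPM + 1) of all 12 libraries with limma 3.58.1 in R 4.3.3 (eBayes with a trend), on genes that reached 1 TPM in at least 3 libraries. Tests were two-sided with Benjamini-Hochberg adjustment within each comparison. The fit was also run on simulated data that held no scaling shifts and no outlying libraries. That run cannot show how the calls depend on such features. Of each list, the 3 called genes with the smallest adjusted p per comparison could be named, or, with none called, the 2 most abundant. The planned ratios with abhd5a and g0s2 could not be made. Members and lists were chosen with earlier results of these data known.

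Libraries with the same number deviated together in surface wild and surface lab (residual r of 0.153, 0.111 and 0.271) and not in the other comparisons, where 1 of 9 values was above 0.1. Libraries with different numbers were not compared in this way, and the values within a comparison depend on each other. Whether the number pairs the libraries of those surface groups can therefore not be told from these values. The main limma fit leaves the number out. It enters only the paired permutation of the plin2 to pnpla2 ratio and, over all groups, the replicate block. Alternatives were other scalings, pseudocounts and filters, a replicate block, fits of the compared groups alone and leaving out each library. With single libraries left out, calls among all genes moved too. They numbered 1546 to 5162 in cave wild minus surface wild and 614 to 1059 in cave lab minus surface lab. In cave wild minus cave lab they numbered 2179 to 5269, and in surface wild minus surface lab 882 to 3616. For the difference between the form differences they numbered 161 to 3035, beside 655 with all libraries.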

Additional observations from a re-analysis of the deposited data

Results flagged for a closer look

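Among the members and the 4 gene lists, the limma test of the difference between the form effects in wild-caught and laboratory fish called 2 genes, both from the lists. Of all tested genes it called 655, or 5.08%. For pparab the log2 difference between cave and surface livers in wild-caught fish minus that in laboratory fish was -3.23 ± 0.65 (adjusted p = 0.0223). Of 20 alternatives 15 kept that call, with values between -3.68 and -2.48. For nsdhl the value was -4.51 ± 1.15 (adjusted p = 0.0464). Of 20 alternatives 3 kept that call, with values between -6.02 and -2.60, the smallest without surface wild 1 and 2.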

How the results depend on the processing

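Across the alternatives run for the members' differences, 549 values kept direction and side of the threshold, 24 lost the call, 8 gained it and 33 changed sign. Called members numbered 1 in cave wild minus surface wild, 0 with low genes kept in the test, 2 when those groups were fitted alone, 0 without surface wild 1 and 2 (chosen after seeing the data) and 0 to 1 with single libraries left out. For cave wild minus cave lab the count was 1, and 0 under median-of-ratios scaling, quantile scaling, no filter or a filter at 5 TPM, 3 with those groups alone, 2 without surface wild 1 and 2 and 0 to 2 with single libraries left out. For surface wild minus surface lab it was 1, and 0 with no filter, the filter at 5 TPM, those groups alone or without surface wild 1 and 2, and 0 to 1 with single libraries left out. For cave lab minus surface lab it was 0, and 0 to 1 with single libraries left out. In cave wild minus surface wild, median-of-ratios and quantile scaling each ended the plin2 call, and lipea passed instead, higher in cave. Under the filter at 5 TPM mgll and lipeb were not tested. For the other changes the cause was not tested. The member counts of these alternatives are not set against the share of all genes called under the same setting. With cave wild and cave lab fitted alone, calls were also many on the gene lists. There 11 of 21 other droplet genes, 16 of 28 lipases and related enzymes, 17 of 32 signalling genes and 22 of 34 autophagy genes were called.

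Signs changed as follows. Cave wild minus cave lab was 0.29 for plin2, 0.025 for pnpla2 and 0.54 for lipea under median-of-ratios scaling, and 0.25, 0.078 and 0.52 under quantile scaling. The difference between form differences for cideb was 0.76, 0.36 and 0.039 under these scalings and with the 50 most abundant genes removed, and that for mgll was -0.025 at a pseudocount of 0.1. Cave lab minus surface lab for lipeb was -0.084 under quantile scaling. Without surface wild 1 and 2, where the lone surface wild library is assumed to vary like the other groups, cideb in cave wild minus surface wild was -0.10, lipeb in surface wild minus surface lab -0.28 and the mgll difference between form differences -0.62. With single libraries left out, cave wild minus surface wild ran from -0.27 to 0.59 for cideb and -0.59 to 0.095 for mgll, and cave lab minus surface lab from -0.24 to 0.70 for lipeb. Cave wild minus cave lab ran from -1.21 to 0.49 for plin2, -1.23 to 0.18 for pnpla2 and -0.62 to 0.0064 for lipea, and surface wild minus surface lab from -0.45 to 0.73 for lipeb. The difference between form differences ran from -0.61 to 0.25 for cideb, -0.27 to 0.62 for mgll and -0.13 to 1.28 for pnpla2. The log2 ratio of plin2 to pnpla2 ran from -1.04 to -0.76 for form and 0.91 to 1.23 for environment.

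With the replicate number as a block, plin2 in cave wild minus surface wild was -3.12 and the counts of called members were 1, 0, 1, 1 and 0, as without it. No fit of compared groups alone exists for the difference between form differences. TPM gives no read depth, so the precision of low members such as lipeb is unknown.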

Other observations

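The gene cidec, of the same family as cideb and linked to large droplets in mammals, was looked at after its values were seen. It stood at 5.67, 10.8 and 7.75 TPM in cave wild 1, 2 and 3, and at 61.2, 34.0 and 34.4 TPM in cave lab 1, 2 and 3. In surface wild 1, 2 and 3 it stood at 0.54, 14.2 and 32.1 TPM, and in surface lab 1, 2 and 3 at 36.1, 99.8 and 47.9 TPM. On the TPM scale wild-caught livers were thus lower without overlap in both forms, as for cideb and mgll. Of all tested genes, 56.6% lay lower without overlap in cave and 20.7% in surface livers. Under median-of-ratios scaling cideb overlapped in both forms, mgll in cave livers and cidec in surface livers. The differences of cidec were -2.27 ± 0.86 in cave (adjusted p = 0.0578) and -2.63 ± 0.86 in surface livers (adjusted p = 0.0532), and neither passed in limma. The third family member, cidea, reached at most 0.06 TPM.

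The gene pnpla3, a close relative of pnpla2 linked to liver fat in humans, reached 9.52 TPM in cave wild 2 and 5.85 TPM in cave lab 2. In the other cave libraries it stood at 0.47 to 1.94 TPM. In surface wild 1, 2 and 3 it stood at 4.38, 2.1 and 1.70 TPM, and in surface lab 1, 2 and 3 at 0.92, 0.94 and 1.72 TPM.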
